A study of Mus musculus with 9 samples.

Results

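The 8 genes described here encode enzymes of fatty acid beta-oxidation. They are Cpt1a, Cpt2, Acadm, Acadl, Acadvl, Hadha, Hadhb and Ehhadh, and they were chosen by symbol among the 27962 gene names on the array. The array carries 11 probes for them, of 41174 probes in all. Mammary gland number 4 was taken on lactation day 2 from 4 wild type (WT) dams and 5 dams overexpressing human NAG-1, and each gland was measured on its own array. The strain is given as C57BL/7 for both genotypes. The hNAG-1 mice express human NAG-1, also called GDF15, a secreted TGF-beta family protein, in all tissues. They were kept as more than 1 transgenic line, and the labels name neither the line nor the age of each dam. The methods describe gland collection after the last litter of a breeding study.

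Beta-oxidation shortens a fatty acid by repeated cycles of dehydrogenation, hydration, dehydrogenation and thiolysis. Long-chain fatty acids enter the mitochondrion as acylcarnitines through the carnitine shuttle, and very long chains are first shortened in peroxisomes. The lactating mammary gland is better known for the opposite flux, since its secretory cells make and take up fatty acids for milk triglyceride. In whole gland RNA, fewer cells of a type and less RNA per cell cannot be told apart.

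In none of the 8 genes did a difference between genotypes pass a test. No member gene passed an unadjusted p of 0.05 in limma, where 5.6% of all probes did, and none passed after Benjamini-Hochberg adjustment over all probes, where 0.00243% did. In no member did the 4 WT glands and the 5 hNAG-1 glands separate without overlap, a pattern seen in 1.35% of all probes. The lowest p among the 11 probes was 0.144 and the lowest adjusted p was 0.661 (limma). The mean was higher in hNAG-1 for 5 genes and lower for 3. The median log2 fold change of the 8 genes, given throughout as hNAG-1 minus WT, was 0.03, against -0.02 over all probes. The split into higher and lower genes changed with the scaling of the arrays, to 3 higher and 5 lower after quantile normalization, 7 and 1 after dividing by the median of each array, and 1 and 7 without scaling. Median scaling raised the median difference of all probes by 0.22, and leaving the arrays unscaled lowered it by 0.15.

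**Figure D1:**
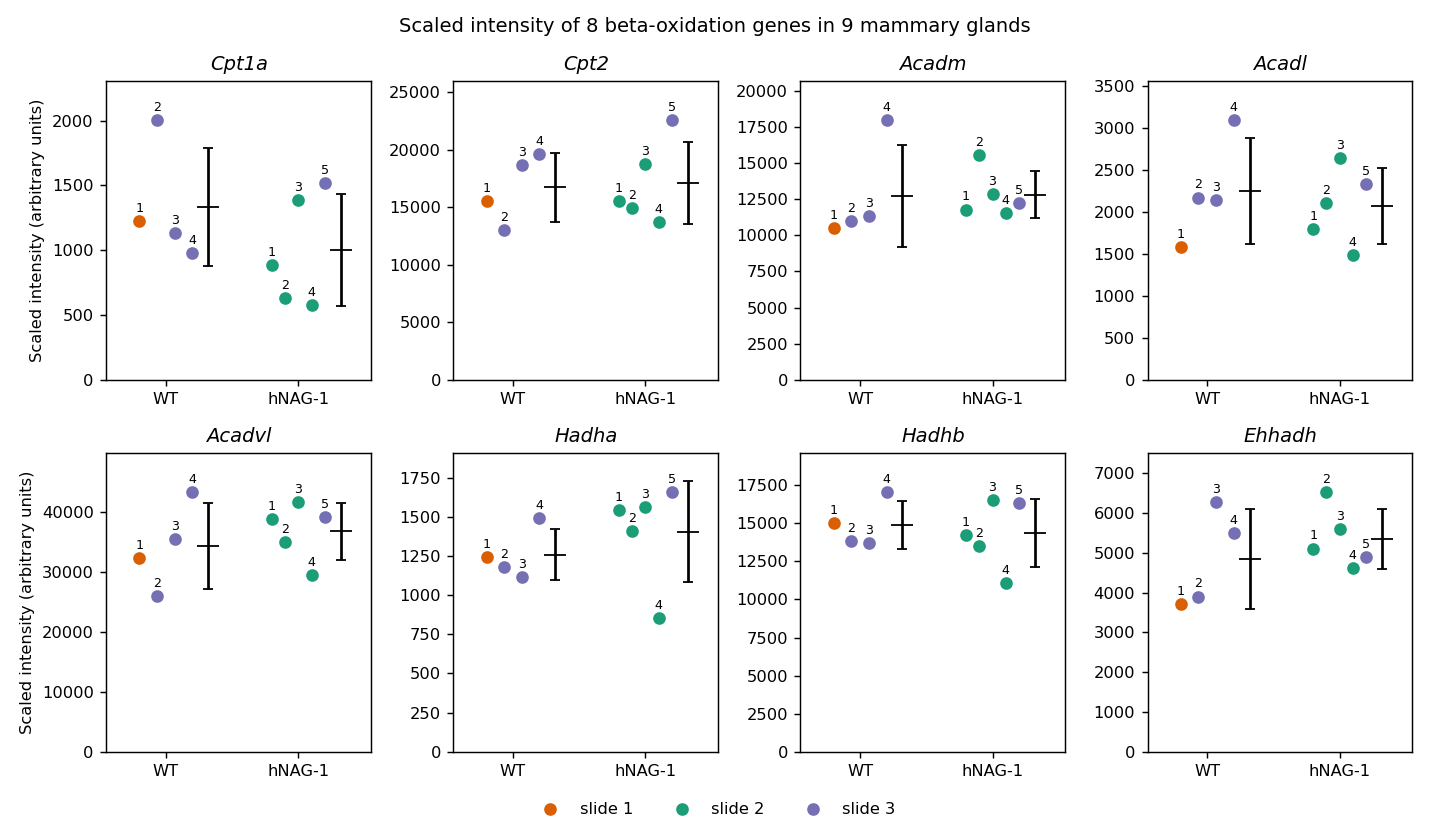
Scaled intensity (arbitrary units, from 0) of the 8 genes in each WT and hNAG-1 gland. Points are single glands with their replicate number, colored by slide, and the bar beside each group is the mean ± SD. The genotypes overlap in all 8 genes, and hNAG-1 4 is the lowest hNAG-1 gland in each.

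Levels are given as scaled intensity, the background-subtracted brightness of a probe divided by the 75th percentile of its array and returned to a common scale of arbitrary units. They can be compared between glands for 1 probe, not between probes. Of the 11 probes, 10 were well above background on all 9 arrays, and none was saturated. Genotype was partly tied to slide. WT 1 lay alone on slide 1, hNAG-1 1 to 4 lay on slide 2, and WT 2 to 4 lay with hNAG-1 5 on slide 3. A fit with slide as a block therefore compares hNAG-1 5 with the 3 WT glands of slide 3. In that fit 5 of 8 genes were again higher in hNAG-1, but 4 of 8 changed sign, and the lowest p was 0.228 (limma). The median of the 8 genes was 0.17 in the slide fit, against 0.19 over all probes.

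**Figure D2:**
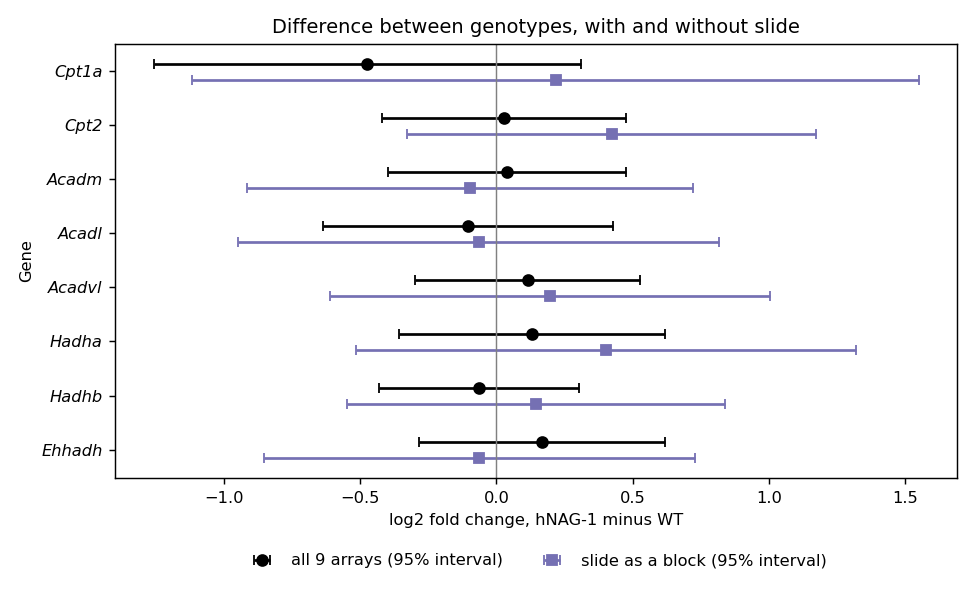
Log2 fold change of hNAG-1 minus WT for the 8 genes, from limma over all 9 arrays (circles) and with slide as a block (squares), both with 95% confidence intervals. All intervals include 0, and those of the slide fit are wider in every gene.

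Of the carnitine shuttle, Cpt1a encodes the enzyme of the outer mitochondrial membrane that couples long-chain acyl groups to carnitine and is inhibited by malonyl-CoA. Its main probe had scaled intensities of 1221, 2004, 1128 and 977 in WT 1 to 4. The hNAG-1 glands 1 to 5 gave 885, 627, 1388, 574 and 1515. Below every WT gland lay 3 hNAG-1 glands, and the other 2 lay among them. The log2 fold change was -0.47 (SE 0.35, 95% interval -1.26 to 0.31; limma adjusted p = 0.661). The exact permutation test over the 126 splits of the arrays gave p = 0.254 (two-sided), where the smallest possible value is 0.00794. With slide as a block the direction turned, to 0.22 (SE 0.57). On slide 3, hNAG-1 5 lay above WT 3 and WT 4 and below WT 2. Leaving out 1 gland at a time moved the difference from -0.65 (without hNAG-1 5) to -0.26 (without WT 2, the highest gland). It was -0.30 without hNAG-1 4, the lowest.

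Repeat spots of Cpt1a gave its precision within an array. Its main probe is printed 10 times on each array, and the coefficient of variation (CV) over those spots was 3.70% to 5.72%. The median SD within an array was 0.069 on the log2 scale. Between glands of a genotype the residual SD was 0.57, which was 8.26 times as large. Spots of an array share the same RNA, labeling and hybridization, so their SD covers spot noise only. A second probe for the same transcript, 745 bases away in the genome, gave 102, 234, 165 and 94.0 in WT 1 to 4 and 74.8, 77.5, 141, 69.8 and 187 in hNAG-1 1 to 5. Its log2 fold change was -0.46 (SE 0.38; exact permutation p = 0.302, two-sided). Both probes put WT 2 highest and hNAG-1 4 lowest, and over the 9 arrays they correlated with r = 0.90. The first 30 of the 60 bases of each probe are shown, since these 2 sequences carry the measurement that varied most. They lie on mm7 at chr19:3280180-3280239 and chr19:3279435-3279494, plus strand.
Cpt1a A_51_P427674: tcttaggactacttgctaacctctgttact
Cpt1a A_52_P219753: cagttccattaagcaacaaaataacagatg

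Cpt2, the inner membrane enzyme that hands the acyl group back to CoA, differed little. Its scaled intensity was 15539, 13028, 18659 and 19641 in WT 1 to 4 and 15572, 14920, 18788, 13690 and 22578 in hNAG-1 1 to 5. The highest gland was hNAG-1 5 and the lowest WT 2. The log2 fold change was 0.03 (SE 0.20, 95% interval -0.42 to 0.48), and 0.42 (SE 0.32) with slide as a block, where hNAG-1 5 stands alone for its genotype.

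The acyl-CoA dehydrogenases take the first step of each cycle and differ in the chain length they prefer. Acadvl, for very long chains, had scaled intensities of 32321, 26034, 35540 and 43364 in WT 1 to 4 and 38798, 34941, 41629, 29457 and 39224 in hNAG-1 1 to 5. Acadl, for long chains, had 1579, 2173, 2145 and 3098 in WT and 1799, 2102, 2641, 1488 and 2328 in hNAG-1. Acadm, for medium chains, had 10505, 11020, 11369 and 18010 in WT and 11798, 15604, 12861, 11580 and 12265 in hNAG-1. In all 3 genes WT 4 was the highest of the 9 glands. In Acadm the other 3 WT glands lay below every hNAG-1 gland. The log2 fold changes were 0.12 (SE 0.18) for Acadvl, -0.11 (SE 0.24) for Acadl and 0.04 (SE 0.19) for Acadm. Their 95% intervals ran from -0.30 to 0.53, from -0.64 to 0.43 and from -0.40 to 0.47. With slide as a block the values were 0.20, -0.06 and -0.10.

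Hadha and Hadhb encode the alpha and beta subunits of the mitochondrial trifunctional protein, which carries out the last 3 steps for long chains. Hadha holds the hydratase and 3-hydroxyacyl-CoA dehydrogenase activities and Hadhb the thiolase. Hadha had scaled intensities of 1243, 1182, 1119 and 1494 in WT 1 to 4 and 1547, 1410, 1563, 854 and 1659 in hNAG-1 1 to 5. Above every WT gland lay 3 hNAG-1 glands, and hNAG-1 4 lay below every WT gland. The log2 fold change was 0.13 (SE 0.22, 95% interval -0.36 to 0.62), and 0.30 without hNAG-1 4. Hadhb had 15011, 13832, 13690 and 17061 in WT and 14243, 13508, 16552, 11101 and 16364 in hNAG-1. Its log2 fold change was -0.06 (SE 0.16, 95% interval -0.43 to 0.30), the narrowest interval of the 8 genes. With slide as a block Hadha was at 0.40 and Hadhb at 0.15.

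Across the 9 glands Hadha and Hadhb had the highest correlation among the 28 pairs of members (Pearson r = 0.85, exact permutation p = 0.00525, 0.114 after Benjamini-Hochberg adjustment over the 28 pairs). Spearman's rho was 0.73 (exact permutation p = 0.0311, adjusted p = 0.124). All arrays were scaled before the comparison, so the 2 genes also share each array's scaling factor. After subtracting the mean of each genotype r was 0.93, and it was 0.91 with median scaling, 0.94 without scaling and 0.64 with quantile normalization (exact permutation p = 0.0595). Unscaled, both genes share each array's brightness, with a 75th percentile from 533 (hNAG-1 1) to 1185 (WT 2). The relation rested partly on single glands. Without hNAG-1 4 and WT 3, the glands farthest from the median of Hadha, r was 0.56, and without hNAG-1 4 alone it was 0.65 (exact permutation p = 0.0874). Among 23088 other probes well above background on all arrays, Hadhb ranked 60th by its correlation with Hadha, and Hadha ranked 142nd by its correlation with Hadhb. The median of those correlations was 0.09 for each.

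The 2 genes lie head to head on chromosome 5. In RefSeq on GRCm38.p6 their start sites are 273 bases apart, with Hadha on the minus and Hadhb on the plus strand. The 272 bases between them, chr5:30154981-30155252, are shown on the plus strand because both genes start from this interval. Capitals mark GGGCGG, which matched 2 times on the plus strand and 0 times on the minus strand. The interval is 60.3% G or C.
Hadha to Hadhb: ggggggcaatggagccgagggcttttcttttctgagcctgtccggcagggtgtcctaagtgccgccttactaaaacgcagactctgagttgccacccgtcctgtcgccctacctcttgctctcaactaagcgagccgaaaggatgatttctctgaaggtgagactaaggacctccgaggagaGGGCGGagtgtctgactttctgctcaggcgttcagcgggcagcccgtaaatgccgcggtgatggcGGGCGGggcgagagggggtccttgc

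**Figure D3:**
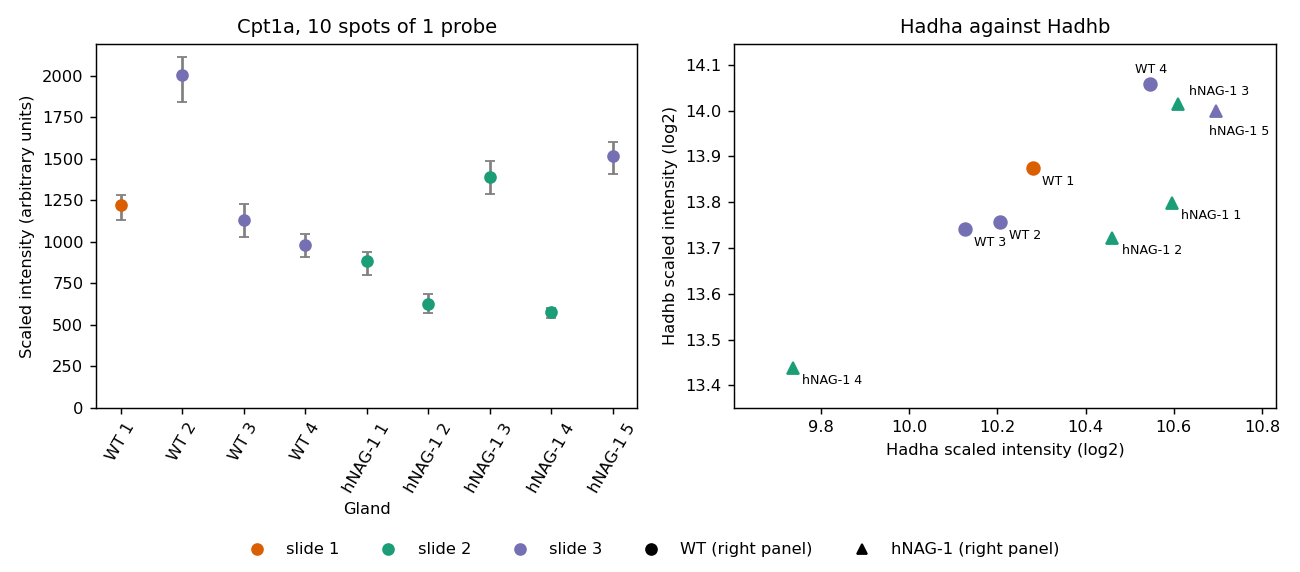
Left, scaled intensity of Cpt1a in each gland (point, mean of the 10 spots of 1 probe; bar, lowest to highest spot), colored by slide. Right, log2 scaled intensity of Hadhb against Hadha in the 9 glands (circles WT, triangles hNAG-1). Spot ranges are narrow beside the range between glands, and hNAG-1 4 lies apart at the low end of both subunits.

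Hadha has 2 further probes, designed on cDNA clones and not on its reference mRNA. They lie 27.6 and 34.4 kb from the mRNA probe on mm7. The nearer one, A_52_P338459, was not well above background on any array. The other, A_52_P658044, gave 127, 76.6, 139 and 128 in WT 1 to 4 and 70.3, 88.1, 83.5, 76.9 and 131 in hNAG-1 1 to 5. It differed from the mRNA probe in direction, with a log2 fold change of -0.39 (SE 0.24, 95% interval -0.93 to 0.16; exact permutation p = 0.167, two-sided), and over the 9 arrays the 2 probes correlated with r = 0.16. WT 2 lay among the hNAG-1 glands 1 to 4, and hNAG-1 5 lay with the other WT glands. With slide as a block its difference was 0.24. The first 30 bases of the mRNA probe (chr5:29152587-29152646) and of the clone probe (chr5:29187010-29187069, both mm7, minus strand) are shown because the 2 probes, at different positions, differed in direction.
Hadha A_52_P193029: ggaagcaggaaaaagaccaaggctagcctt
Hadha A_52_P658044: cccaaatctgtaagggcaaatgtaacttca

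Ehhadh encodes the peroxisomal bifunctional enzyme, which performs the hydratase and dehydrogenase steps outside the mitochondrion. It had scaled intensities of 3707, 3904, 6293 and 5495 in WT 1 to 4 and 5112, 6533, 5591, 4616 and 4910 in hNAG-1 1 to 5. WT 1 and WT 2 were the lowest glands, and the other 7 overlapped. The log2 fold change was 0.17 (SE 0.20, 95% interval -0.28 to 0.62), and -0.06 with slide as a block. In 4 of the 8 genes the 95% interval stayed within 1.5-fold in either direction, and in 7 it stayed within 2-fold. In the slide fit these counts were 0 and 4. Without the block Cpt1a was the exception, with an interval from 0.418-fold to 1.24-fold. The median residual SD of the 8 genes was 0.28 on the log2 scale, the same to 2 decimals as over all probes well above background on all arrays.

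The mean level of the 8 genes varied more between single glands than between genotypes. When each gene was centered on its mean over the 9 arrays, hNAG-1 4 lay below the mean in all 8 genes, with a mean of -0.40 on the log2 scale. It was the lowest of the 5 hNAG-1 glands in 8 of 8 genes and the lowest of all glands in 4. WT 4 averaged 0.25 and was the highest WT gland in 6 genes. The gland hNAG-1 3 averaged 0.22 and lay above the mean in all 8 genes, and hNAG-1 5 averaged 0.21. Averaged over the 8 genes, WT glands stood at 0.01 ± 0.17 (SD, n = 4) and hNAG-1 glands at -0.01 ± 0.25 (SD, n = 5). The count for hNAG-1 4 was 8 of 8 with normexp background correction, 7 with quantile normalization, 6 with median scaling and 4 without scaling. On each of these scales hNAG-1 4 had the lowest mean of the 9 glands.

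**Figure D4:**
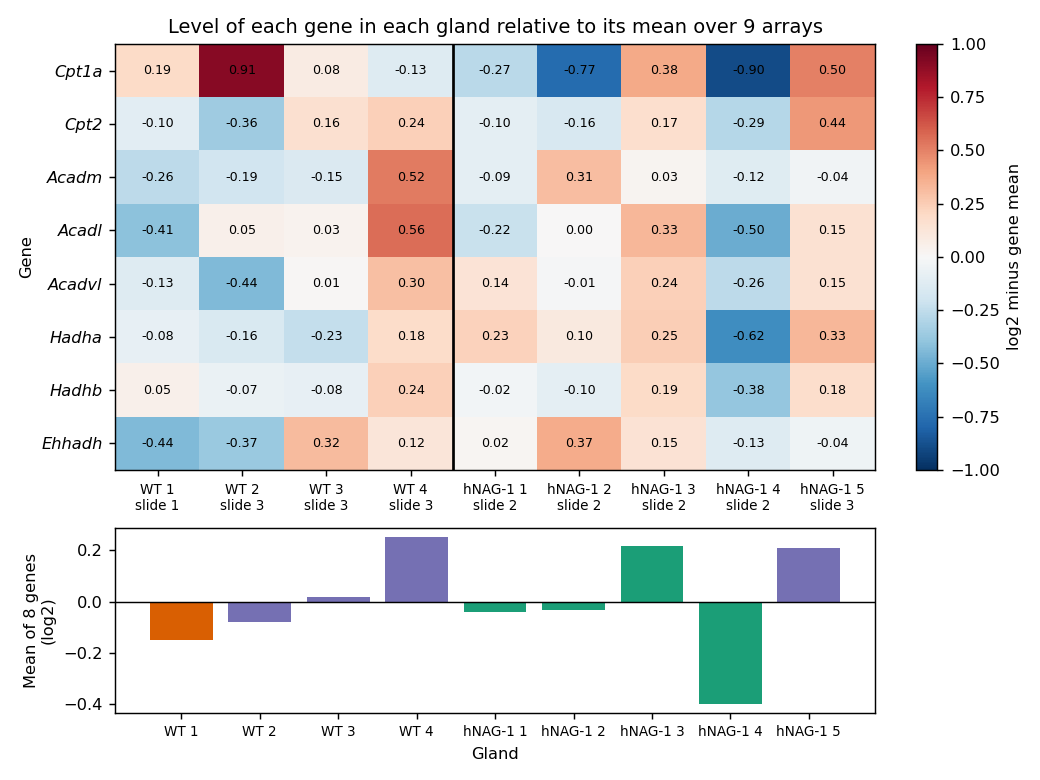
Upper panel, log2 scaled intensity of each gene (rows) in each gland (columns) minus the mean of the gene over the 9 arrays; the line separates WT from hNAG-1. Lower panel, mean of the 8 genes per gland (log2), colored by slide as named above. Every gene is below its mean in hNAG-1 4, while Cpt1a alone stands at 0.91 in WT 2.

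Values of other cell types differed between the same glands. The gland hNAG-1 4 had the lowest share of features well above background (59.8%). The share was 60.3% in hNAG-1 2, where the mean of the 8 genes was -0.03. The highest summed scaled intensity of 5 macrophage markers, 201440, was that of hNAG-1 4. The macrophage sum was 59479 to 145599 in WT and 58617 to 80533 in the other hNAG-1 glands. Lyz2 made up 92.6% of the sum in hNAG-1 4, so the sum follows mainly this probe. Of the 5 markers, Lyz2, Adgre1 and Mrc1 were highest in hNAG-1 4, and Cd68 and Csf1r in WT 2. WT 4 had the highest sum of 7 skeletal muscle markers, 89673, and of 5 brown adipocyte markers, 31233, and each of these markers was highest there. The muscle sum was 4298 to 30168 in the other WT glands and 2916 to 27733 in hNAG-1, and the brown adipocyte sum was 4339 to 16320 and 4768 to 9571. All 7 muscle markers were lower in hNAG-1 (median log2 fold change -1.96, 0 at an unadjusted p under 0.05 in limma), as were 4 of 5 brown adipocyte and 4 of 5 macrophage markers (2 and 1 with median scaling). In the slide fit the muscle median was -0.77, with 6 of 7 lower, and the macrophage median went from -0.10 to -0.56, with 5 of 5 lower. Without WT 2, 4 of 5 macrophage markers were higher in hNAG-1. All 11 markers of secretory luminal epithelium were well above background on all arrays. Their summed level was 1178440 to 2170280 in WT and 1547310 to 2232180 in hNAG-1, and 11 of 11 were higher in hNAG-1, with a median log2 fold change of 0.13 (3 of 11 higher without scaling, and 3 of 11 without WT 2, the gland with the lowest sum). For 9 white adipocyte markers the sum was 422468 to 796849 in WT and 586446 to 726404 in hNAG-1. Of these markers, 9 of 9 were higher in hNAG-1, with 0 at an unadjusted p under 0.05 in limma. The count of higher markers was 8 of 9 after quantile normalization and without scaling, and 7 of 9 with slide as a block. Their median log2 fold change was 0.45, and 0.16 with the block. WT 1, alone on slide 1, had the lowest sum and was the lowest gland in 7 of the 9 markers. All 10 lymph node markers were lower in hNAG-1 (9 with median scaling; median -1.36, 1 with an unadjusted p under 0.05 in limma), with sums of 2101 to 68198 in WT and 1553 to 9479 in hNAG-1. The highest lymph node sum was that of WT 2, and without this gland the median was -0.45, with 10 of 10 lower and 0 at an unadjusted p under 0.05. All 5 myoepithelial markers were higher in hNAG-1 under every scaling run and in the slide fit (sums of 57315 to 126492 in WT and 102672 to 137417 in hNAG-1, median 0.35, 0.16 without WT 2), and Myh11, a smooth muscle myosin, had an unadjusted p of 0.0151 and an adjusted p of 0.661 in limma. No marker in these lists was below background on every array. The part of other cells in the values of the 8 genes was not tested.

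The members did not all follow the same order of glands. Of the 28 pairs, 25 had a correlation above 0, with a median r of 0.57. The 7 pairs with Cpt1a had a median of 0.27, and the 21 pairs without it had 0.61. Cpt1a and Ehhadh gave the lowest value, r = -0.42. The pair Cpt2 and Acadvl was second with r = 0.81 (exact permutation p = 0.00813, adjusted p = 0.114; Spearman's rho 0.92, exact permutation p = 0.00131, adjusted p = 0.0367) and kept r = 0.82 without hNAG-1 5 and WT 4. Among the other oxidation genes measured here, Cpt1a was most like Acot1, which encodes a cytosolic acyl-CoA thioesterase (r = 0.86 over 9 arrays, the highest of 41 and so a description). Acot1 had 39666, 43495, 22985 and 21747 in WT 1 to 4 and 18970, 18063, 38734, 17869 and 62789 in hNAG-1 1 to 5. The 3 glands highest in Cpt1a, WT 2, hNAG-1 5 and hNAG-1 3, were thus among the 4 highest in Acot1.

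Among the genes outside the set whose level was most like the mean of the 8 members over the 9 arrays were Igsf21 (Pearson r = 0.97), Slc44a1 (0.96), Ankrd5 (0.95) and 2310028N02Rik (0.94), out of 14204 genes. These are the highest of many correlations over 9 glands, and are given as a description. In Igsf21, scaled intensity was 60, 70.5, 98.4 and 145 in WT 1 to 4 and 73.5, 91.7, 138, 35.1 and 106 in hNAG-1 1 to 5. It was lowest in hNAG-1 4, as was the members' mean by which Igsf21 was chosen.

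Around the 8 enzymes, 41 other genes of fatty acid oxidation were measured, and none of them passed an unadjusted p of 0.05 in limma or an adjusted one. The mean was higher in hNAG-1 for 27 and lower for 14, with a median log2 fold change of 0.08, against 19709 higher and 21465 lower among all probes. Without scaling 12 were higher and 29 lower, with median scaling 39 and 2, and in the slide fit 34 and 7. With slide as a block their median was 0.25, beside 0.19 for all probes. The widest difference was in Cpt1b, the muscle form of the outer membrane transferase, with 222, 154, 334 and 474 in WT 1 to 4 and 235, 102, 202, 122 and 183 in hNAG-1 1 to 5. Its log2 fold change was -0.75 (SE 0.37, limma unadjusted p = 0.0699, adjusted p = 0.661). Its highest gland, WT 4, was also the highest in the muscle and brown adipocyte markers above. WT 2, with a muscle sum of 30168, was the lowest WT gland in Cpt1b. The part of these cells in Cpt1b was not tested. Crat, which transfers short acyl groups to carnitine, was highest of the shuttle genes at 0.27.

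In the mitochondrial cycle, Echs1, the short-chain hydratase, had the largest positive difference (0.30, SE 0.19) and Acaa2, a thiolase, the lowest (-0.08). Eci1 (0.25) and Eci2 (-0.16), isomerases that handle double bonds, spanned the auxiliary enzymes. Etfb (0.11) and Etfdh (-0.05) spanned the genes that pass electrons to the respiratory chain. Of 10 peroxisomal genes, 9 were higher in hNAG-1 (7 after quantile normalization and 3 without scaling), with a median of 0.09 and none past an unadjusted p of 0.05 in limma. The lowest of them was Abcd3, a peroxisomal transporter, at -0.02. Scp2, a sterol carrier whose longer form is a peroxisomal thiolase, was the highest at 0.25 (SE 0.13, limma unadjusted p = 0.0818, adjusted p = 0.661). Its exact permutation p was 0.0159 (two-sided, not adjusted for the 41 genes). With slide as a block Scp2 was at 0.25 (SE 0.25). It was the 1 gene of 41 whose genotypes did not overlap, beside 1.35% of all probes, with 9123, 8915, 10442 and 10388 in WT and 10899, 12572, 10659, 11930 and 11754 in hNAG-1. Of the lowest genes named, Acaa2, Eci2, Etfdh and Abcd3 were higher in hNAG-1 with slide as a block, at 0.50, 0.40, 0.39 and 0.12. Among regulators, Acacb, which makes malonyl-CoA at the mitochondrial surface, was at 0.32 (0.13 with slide as a block). Ppard, a fatty acid sensing nuclear receptor, was at -0.15 (0.30 with slide as a block). Among thioesterases and ketogenic genes, Bdh1, which interconverts the main ketone bodies, was the highest at 0.16.

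**Figure D5:**
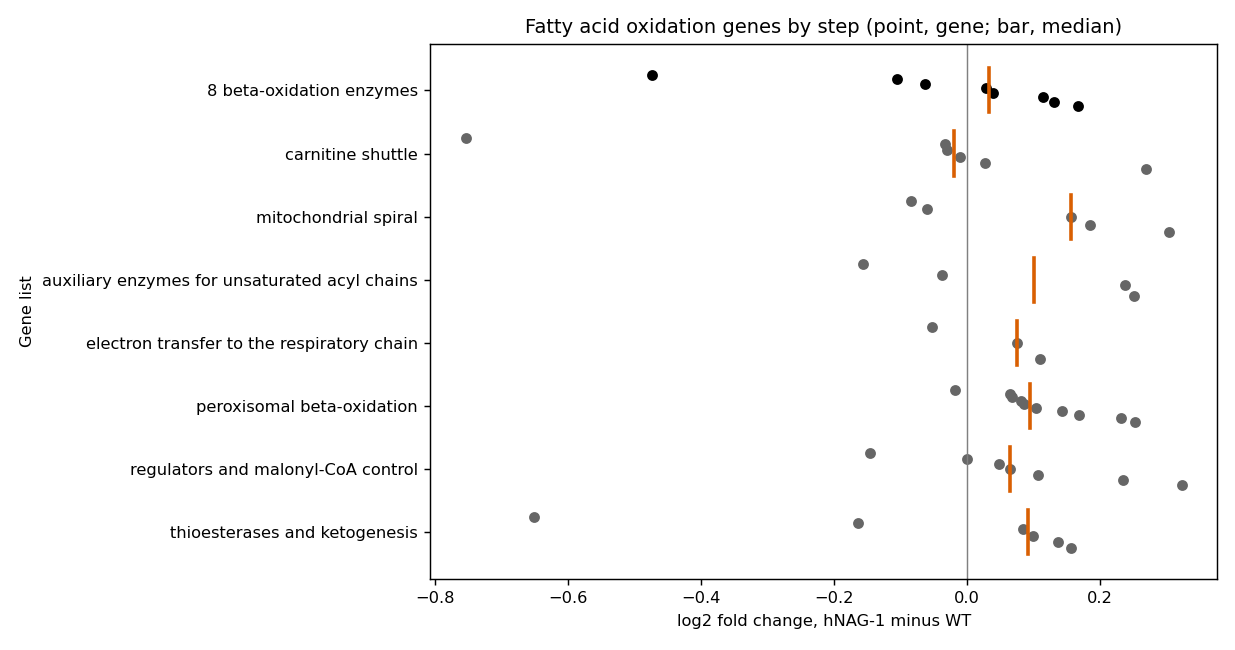
Log2 fold change of hNAG-1 minus WT for the 8 enzymes and for 41 other oxidation genes in 7 lists by step. Points are genes and bars are list medians. List medians lie between -0.02 and 0.16, and the lowest single value is that of Cpt1b at -0.75.

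The promoters of the 8 members, taken from RefSeq on GRCm38.p6 as 250 bases before to 50 bases after the start site, were searched on both strands for letters that nuclear receptors and general factors are known to bind. AGGTCA, the nuclear receptor half-site, was present in 3 of 8 (Cpt1a, Acadm and Acadvl) and in 16.26% of 32851 promoters. Its direct repeat with 1 base between (DR1), known as the element of PPAR receptors, was in 0 of 8 and in 0.0396% of promoters. Only exact matches within these 300 bases were counted, and 13 of the 32851 promoters held one. The 0 of 8 therefore cannot show that the members lack PPAR elements. TCAAGGTCA, an extended half-site of estrogen-related receptors that itself holds AGGTCA, was in 0 of 8 and in 0.423%. GGGCGG was in 6 of 8 and in 35.66%, and TATAAA in 0 of 8 and 13.62%. The windows around AGGTCA are shown, in the direction of each gene, because they are the 3 matches of the half-site in the set. Capitals mark the match, which reads TGACCT where it lies on the opposite strand. They are chr19:3323190-3323229 for Cpt1a, chr3:153944870-153944893 for Acadm and chr11:70015493-70015532 for Acadvl, and the matches in them begin 94, 249 and 87 bases before the start site.
Cpt1a: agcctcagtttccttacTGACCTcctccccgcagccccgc
Acadm: gTGACCTtcgggctccggtgacac
Acadvl: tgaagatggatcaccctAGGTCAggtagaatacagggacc
The 3 genes with the match had log2 fold changes of -0.47, 0.04 and 0.12, and 0.22, -0.10 and 0.20 with slide as a block. A link between the match and the level of a gene was not tested.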

How the data were processed

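Glands from 4 WT and 5 hNAG-1 dams were each hybridized to a 1-color Agilent array, and every replicate is a separate dam. Per the labels, images were read with Feature Extraction version 9.5. The deposited values are the intensity of each feature after background subtraction, not scaled between arrays. For the values used here, control features were dropped, features of the same probe were averaged, and arrays were divided by their 75th percentile and taken to log2. Arrays carry no read depth, so precision depends on how many were run. Genotypes followed the labels. The two-sided limma fit (version 3.58.1, R version 4.3.3) had 7 residual degrees of freedom, was tested on simulated data, and was adjusted by Benjamini-Hochberg over 41174 probes. The methods state ANOVA with p under 0.05, a 1.5 fold change and an intensity cutoff of 65. The members and lists were chosen with earlier results of these data known.

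A gene with more than 1 probe is represented by its brightest on average. Named are all members, in each list of other oxidation genes the highest and lowest difference and any gene with p under 0.05, and the 5 genes most like the members' mean. The values of 2 genes that this rule would name are not reported here. Acot1 was added after its values were seen. Alternatives were other background corrections, scalings, filters, variance models, slide terms, probes and each gland left out. Probe coordinates come from the array design (mm7), and promoters from RefSeq (GRCm38.p6). Protein sequences were not used here, and the transgene itself was not analysed here.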

Additional observations from a re-analysis of the deposited data

Results flagged for a closer look

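Of 22 groups of values over the 11 probes, 3 held a gland apart from the others of its genotype by Dixon's ratio (gap to the nearest gland over the whole range of log2 values, at the 95% level), where chance flags about 1 in 20 groups. For Acadm, WT 4 was highest among WT at 18010 (ratio 0.853). For the main Hadha probe, hNAG-1 4 was lowest among hNAG-1 at 854 (ratio 0.754). For the Hadha clone probe A_52_P658044, WT 2 was lowest among WT at 76.6 (ratio 0.845). On the linear scale the ratios were 0.885, 0.690 and 0.804, and those of both Hadha probes no longer passed. The glands WT 4 and hNAG-1 4 were also those with the highest muscle and macrophage marker sums (the latter 92.6% Lyz2), and WT 2 had the highest lymph node marker sum (68198) and the lowest sum of luminal epithelium (1178440). Their part was not tested.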

How the results depend on the processing

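No member gene passed an unadjusted p of 0.05 under any alternative run, and the lowest p was 0.0819 (Cpt1a without hNAG-1 5, -0.65, limma). Differences near 0 changed sign with the scaling. Quantile normalization gave -0.082 for Cpt2 and -0.056 for Acadm, median scaling gave 0.11 for Acadl and 0.15 for Hadhb, and no scaling gave -0.12 for Cpt2, -0.11 for Acadm, -0.032 for Acadvl and -0.017 for Hadha. With the 75th percentile over detected probes, Cpt2 was at -0.011 and Acadm at -0.00014, and with array weights Cpt2 was at -0.15, Acadm at -0.061 and Acadvl at -0.033. With slide as a block, and within slide 3 alone, Cpt1a was at 0.22, Acadm at -0.097, Hadhb at 0.15 and Ehhadh at -0.063. Hadha was at -0.025 as the mean over its probes and at -0.39 by its clone probe A_52_P658044. That probe, which does not stand for the gene, passed an unadjusted p of 0.05 in limma with array weights (-0.60, where 15.2% of all probes passed), without WT 2 (-0.58, 4.33%) and without hNAG-1 5 (-0.53, 14.4%), with adjusted p from 0.173 to 0.896.

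Leaving out 1 gland at a time gave -0.086 to 0.11 for Cpt2, -0.041 to 0.22 for Acadm, -0.26 to 0.063 for Acadl, -0.0097 to 0.24 for Acadvl, -0.12 to 0.026 for Hadhb, 0.061 (without hNAG-1 5) to 0.30 (without hNAG-1 4) for Hadha and 0.050 (without WT 1) to 0.31 (without WT 3) for Ehhadh. The median of the 8 genes ran from -0.052 to 0.16. Of the other oxidation genes, 0 to 1 passed an unadjusted p of 0.05 when a gland was left out (Cpt1b, without WT 2 or without hNAG-1 1, where 4.33% and 6.84% of all probes passed). The count was 1 with median scaling, a floor of 20, the methods' test and the robust, trended form of eBayes, where the gene was Scp2, and with no scaling and array weights, where it was Cpt1b. Between 4.82% (the methods' test) and 15.2% (array weights) of all probes passed under these 6 settings. The median of the other oxidation genes was 0.30 with median scaling, 0.25 with slide as a block or slide 3 alone, 0.033 with quantile normalization, 0.0027 with array weights and -0.066 without scaling, and 0.038 to 0.13 when a gland was left out. The causes were not tested.

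Replicate numbers 1 to 4 occur in both genotypes and were not taken to pair the glands. Only 1 of 4 same-numbered pairs deviated together (correlations from -0.35 to 0.33). WT 2 and hNAG-1 4, of different numbers, reached 0.38, so these correlations cannot decide whether the numbers pair glands. With the replicate number as a block, which leaves out hNAG-1 5, Cpt2 was at -0.078, and the counts of member genes called remained 0.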
